A study of Danio rerio with 12 samples.

Results

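The genes described here are 8 zebrafish genes that interferon is known to induce, listed around ifit14. They are the ifit family members ifit14, ifit15, ifit8, ifit9 and ifit10, and the effector genes isg15, rsad2 and mxa. They were found by gene symbol, and all 8 were among the 31540 genes in the files. ifit14 was chosen by its edgeR difference between 4 mg/L bisphenol A and solvent control in these same libraries, so that contrast is given below as a description with no test, for ifit14 and for the genes listed with it. Each library was made from polyadenylated RNA of 10 pooled whole larvae, wild type, at 5 days post fertilization. The 4 groups had 3 libraries each: solvent control, and bisphenol A (BPA) at 0.1, 1 and 4 mg/L. BPA is a plastics monomer that binds estrogen receptors weakly. Exposure was by water, starting on day 2 and ending on day 5, and all groups, control included, carried 0.2% DMSO. The labels do not say whether pools came from separate clutches or dishes, so p-values measure only the spread between these pools.

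Interferons are cytokines that cells release when their sensors detect foreign nucleic acid. They bind paired surface receptors, JAK kinases then phosphorylate STAT proteins, and STAT and IRF factors switch on antiviral genes. In mammals IFIT proteins bind foreign RNA and hold back its translation, ISG15 is a ubiquitin-like tag, RSAD2 (viperin) makes a nucleotide that ends viral RNA chains, and Mx proteins are GTPases that trap viral particles. Fish carry their own expanded sets of ifit and mx genes, and larvae at this stage rely on innate immunity.

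Depth ran from 21.95 to 34.22 M counts per library, so that 1 count of a gene was worth about 0.03 to 0.05 CPM (counts scaled to a library of 1 M). The value was 0.0511 CPM in control 3. Of the 8 genes, isg15 had 21 to 81 counts in each library, and the others had at most 12 in a control library. ifit8, ifit9 and ifit10 had 1, 14 and 29 counts over all 12 libraries and did not pass the filter on low counts, which left 5 of the 8 in the tests. ifit14, ifit15 and rsad2 passed it through exposed libraries alone, since 0 of the 3 controls reached the filter's minimum of 0.333 CPM for each of them. A gene that passes in this way had to be higher in some exposed libraries. Counts and medians over the 5 genes, and p-values of such genes against control, are therefore descriptions and not evidence of a direction. Libraries also differed by replicate number. The first principal component held 29.3% of the variance, and the 4 libraries numbered 3, together with control 2, scored between 13.1 and 45.8 on it, while the other 7 scored below 0. Scores on this component differed by dose as well. Controls 1, 2 and 3 scored −9.56, 27.6 and 45.8, and the libraries at 4 mg/L scored lower, at −40.4, −31 and 13.1.

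ifit14 (ENSDARG00000071012) was higher in every exposed library than in any control. Its deposited counts were 1, 7 and 3 in control replicates 1, 2 and 3. They were 29, 16 and 26 at 0.1 mg/L, 32, 10 and 14 at 1 mg/L, and 35, 59 and 33 at 4 mg/L. In CPM the group means were 0.142 ± 0.107 in controls, 0.815 ± 0.291 at 0.1 mg/L, 0.639 ± 0.303 at 1 mg/L and 1.32 ± 0.488 at 4 mg/L (SD, n = 3 each). The 9 exposed libraries ran from 0.311 to 1.88 CPM with a median of 0.97, and no exposed library overlapped the controls, whose highest value was 0.243. Of all tested genes, 1.75% had all 9 exposed libraries above all 3 controls.

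The summed counts of ifit14 at 4 mg/L were 127, against 11 in controls, a ratio of 9.85 after scaling with a 95% counting interval of 5.32 to 20.2. At 1 mg/L they were 56, a ratio to controls of 4.81 (2.49 to 10.2), and at 0.1 mg/L 71, a ratio of 5.97 (3.14 to 12.5). These exact binomial intervals pool the libraries of a group and cover counting error only, so they leave out the spread between pools. For ifit14, chosen by its difference at 4 mg/L and passed by the filter through exposed libraries alone, they are descriptions and not a test. The reads carry no molecular identifiers, so duplicate reads are not covered either. edgeR's fitted log2 fold change at 4 mg/L was 3.25 (SE 0.60), and it rested partly on single controls: it was 2.67 without control 1 and 4.04 without control 2. By edgeR (quasi-likelihood test, two-sided, p adjusted by Benjamini-Hochberg over 22399 genes), ifit14 had a log2 fold change of 2.54 at 0.1 mg/L (SE 0.62, adjusted p = 0.68) and of 2.2 at 1 mg/L (SE 0.64, adjusted p = 0.27). Neither dose passed the threshold of 0.05, with unadjusted p of 0.0014 and 0.0046. The 2 tests share their controls with the difference that chose the gene.

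**Figure D1:**
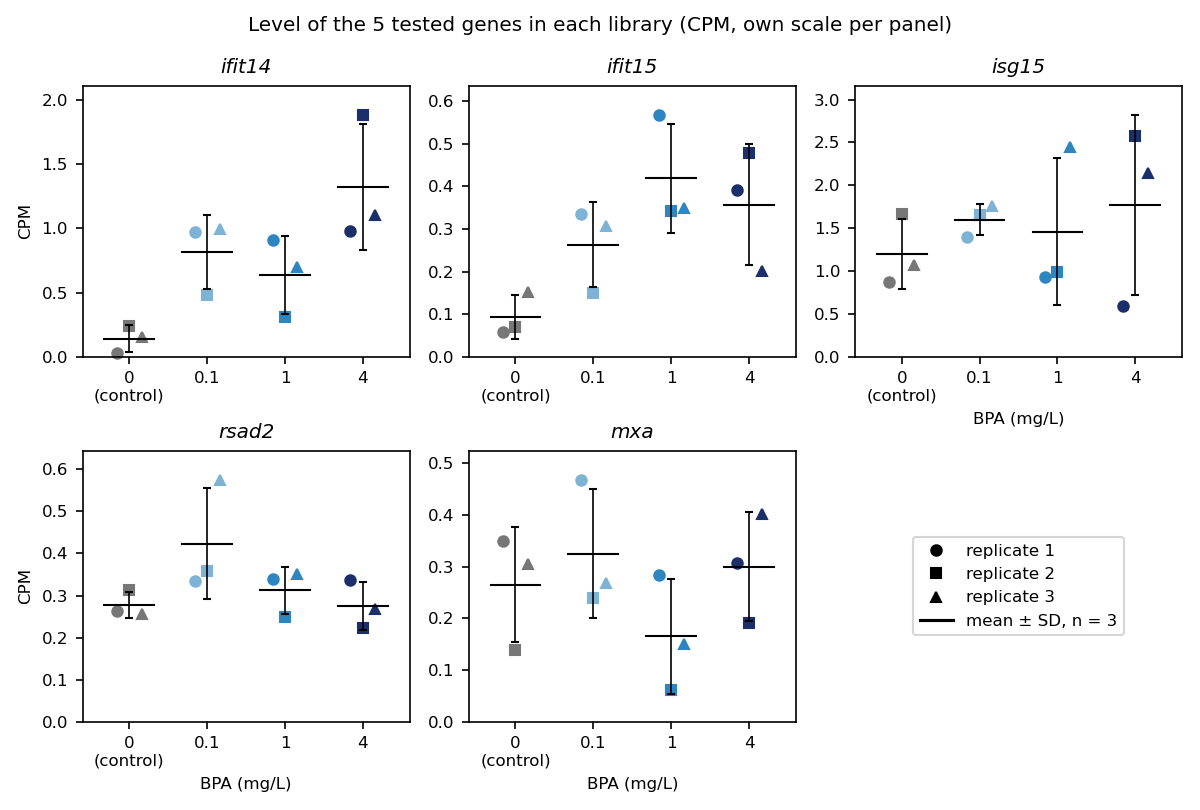
CPM (y axis, own scale in each panel) against BPA dose (x axis) for the 5 tested genes, with a point per library, its shape giving the replicate number, and bars for the mean ± SD of 3 libraries. ifit14 sits between 0.311 and 1.88 CPM in the 9 exposed libraries, above all 3 controls, while isg15, rsad2 and mxa overlap with controls at 4 mg/L.

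ifit15 (ENSDARG00000043584), the neighbour of ifit14 in the RefSeq gene order, was also lowest in controls. Its counts were 2, 2 and 3 in controls, 10, 5 and 8 at 0.1 mg/L, 20, 11 and 7 at 1 mg/L, and 14, 15 and 6 at 4 mg/L. The group means were 0.0936 ± 0.0519 CPM in controls, 0.263 ± 0.0996 at 0.1 mg/L, 0.419 ± 0.128 at 1 mg/L and 0.357 ± 0.142 at 4 mg/L (SD, n = 3 each). Of the 9 exposed libraries 8 lay above all controls, and the exception was replicate 2 at 0.1 mg/L, with 0.150 CPM against 0.153 in control 3. The summed counts of 35 at 4 mg/L and 7 in controls gave a ratio of 4.26 (counting interval 1.87 to 11.4). The edgeR log2 fold change of ifit15 was 2.26 at 1 mg/L (SE 0.55, adjusted p = 0.20) and 1.55 at 0.1 mg/L (SE 0.59, adjusted p = 0.96), with unadjusted p of 0.0014 and 0.021. At 4 mg/L it was 2.01 (SE 0.56). The p-values and the counting interval of ifit15 are descriptions and not a test, since it passed the filter through exposed libraries alone.

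The other ifit genes lay near or below the filter or close to their controls. ifit16, next to ifit15 in the same gene order and named here after its values were seen, had 20 counts in total at 4 mg/L and 20 in controls, with group means of 0.212 ± 0.119 and 0.253 ± 0.11 CPM (SD, n = 3 each). On the other side of ifit14 lies fas, a death receptor gene. Its edgeR log2 fold change was 0.57 at 4 mg/L (adjusted p = 0.40) and 0.63 at 0.1 mg/L (adjusted p = 0.99). It had 1.62, 1.4 and 2.01 CPM at 4 mg/L and 2.07, 1.32 and 1.88 CPM at 0.1 mg/L. These lay above the controls (1.14, 1.04 and 1.23 CPM), as for 8.24% and 5.09% of all genes at these doses. The libraries at 1 mg/L, with 1.61, 0.963 and 1.15 CPM, overlapped with controls. ifit8 had its single count in control 1 and 0 counts in the 9 exposed libraries. At 4 mg/L, 0 counts allow up to 0.0309 CPM over the 3 libraries. ifit9 had 2 counts in total at 4 mg/L and 7 in controls, a ratio of 0.244 (0.0247 to 1.28). ifit10 had 9 counts at 4 mg/L and 6 in controls, a ratio of 1.28 (0.407 to 4.37). Both intervals include 1, so no difference was detectable at this depth.

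ifit11, which lies next to ifit10 in the RefSeq gene order, and ifit12 had more counts and passed the filter. ifit11 averaged 2.05 ± 0.504 CPM at 4 mg/L and 1.79 ± 0.143 CPM in controls (SD, n = 3 each), with an edgeR log2 fold change of 0.19 (SE 0.27, adjusted p = 0.79). ifit12 averaged 0.846 ± 0.286 CPM at 4 mg/L and 0.837 ± 0.218 CPM in controls, with a log2 fold change of 0.04 (SE 0.38, adjusted p = 0.98). Over the 9 ifit genes in the files, ifit14 gave 127 of 477 counts at 4 mg/L and 11 of 273 in controls. The family members are related copies, and how reads that map to several of them were counted is not given in the sources used here, so the split between copies is uncertain.

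**Figure D2:**
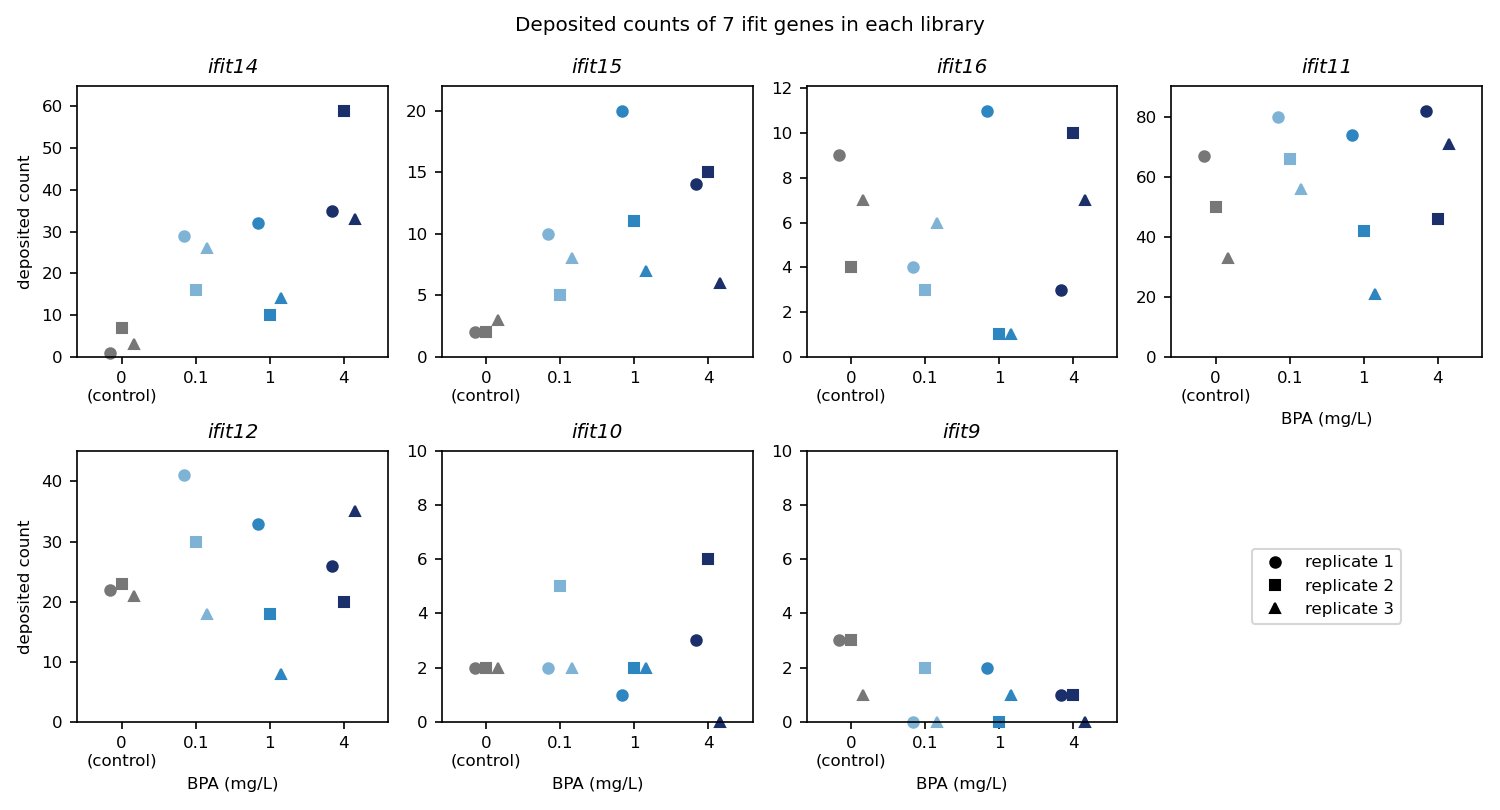
Deposited counts per library (y axis, own scale in each panel) against BPA dose (x axis) for 7 ifit genes, with a point per library and its shape giving the replicate number. ifit14 and ifit15 have at most 7 and 3 counts in a control library, and ifit16, ifit11, ifit12, ifit10 and ifit9 show controls within or near the range of the exposed libraries.

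The effector genes isg15, rsad2 and mxa overlapped between 4 mg/L and controls, and none of the 3 passed the test at 0.1 or 1 mg/L. isg15 (ENSDARG00000086374) had 0.588, 2.58 and 2.14 CPM at 4 mg/L and 0.875, 1.66 and 1.07 CPM in controls, so that the groups overlapped and 4 mg/L held the lowest and the highest of the 12 libraries. The libraries at 0.1 mg/L had 1.4, 1.65 and 1.76 CPM and those at 1 mg/L 0.935, 0.994 and 2.45 CPM. Its edgeR log2 fold change was 0.54 at 4 mg/L (SE 0.49), 0.22 at 1 mg/L (SE 0.51, adjusted p = 0.92) and 0.41 at 0.1 mg/L (SE 0.50). The interval of the 1 mg/L value ran from −0.88 to 1.32.

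rsad2 (ENSDARG00000004952) had 0.336, 0.223 and 0.268 CPM at 4 mg/L and 0.262, 0.312 and 0.255 CPM in controls, which overlap, and 0.340, 0.248 and 0.350 CPM at 1 mg/L. At 0.1 mg/L its 3 libraries, with 0.334, 0.359 and 0.575 CPM, lay above all controls, as for 5.09% of all genes. The log2 fold change there was 0.58 (SE 0.36, edgeR adjusted p = 0.99). These values of rsad2 are descriptions and not a test, since it passed the filter through exposed libraries alone. Its neighbour cmpk2, a nucleotide kinase gene that was below the filter and was looked at after the values were seen, had 14 counts at each of the doses 0.1 and 4 mg/L, 9 at 1 mg/L and 6 in controls. The ratio of 4 mg/L to controls was 1.99, with a counting interval of 0.718 to 6.32 that includes 1. mxa (ENSDARG00000021688) had 0.308, 0.191 and 0.402 CPM at 4 mg/L and 0.350, 0.139 and 0.306 CPM in controls. At 1 mg/L it had 0.283, 0.0621 and 0.150 CPM and at 0.1 mg/L 0.468, 0.239 and 0.268 CPM, so every pair of groups overlapped. The log2 fold change of mxa was 0.17 at 4 mg/L (SE 0.53), −0.63 at 1 mg/L (SE 0.58, edgeR adjusted p = 0.78) and 0.29 at 0.1 mg/L (SE 0.53). mxb lies next to it, with 11 counts in total at 4 mg/L and 15 in controls, and the 2 genes are similar copies whose reads may be split unevenly.

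**Figure D3:**
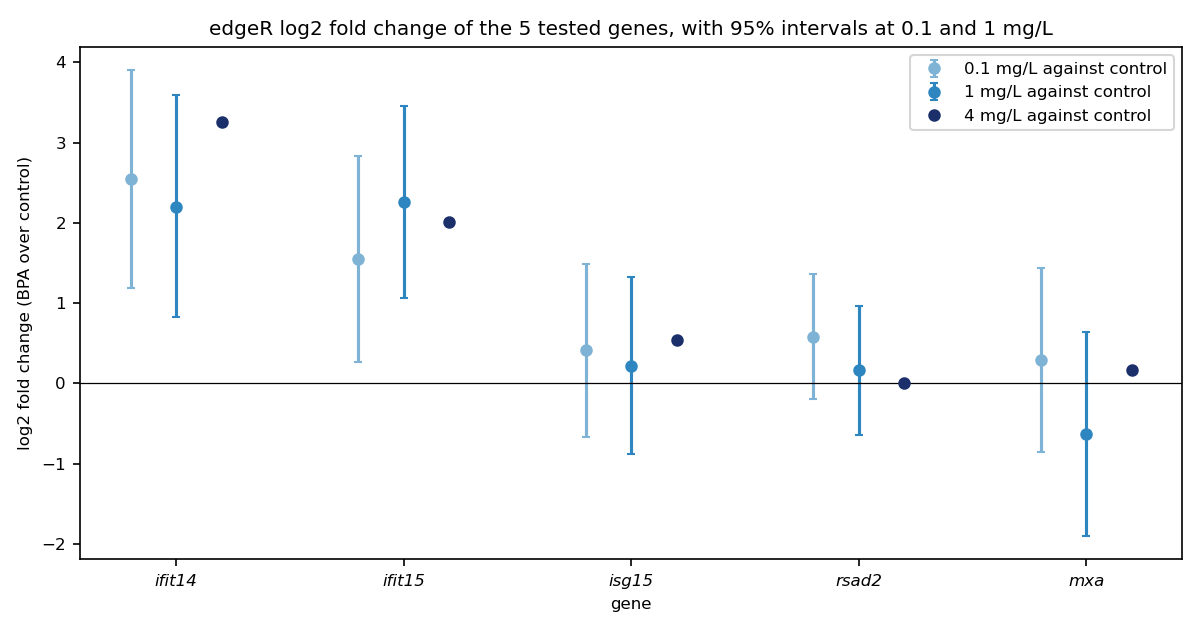
edgeR log2 fold change of BPA over control (y axis) for the 5 tested genes (x axis), a colour per dose, with unadjusted 95% intervals of the fit at 0.1 and 1 mg/L and points alone at 4 mg/L, the contrast that chose ifit14. ifit14 stands at 2.54, 2.2 and 3.25 and ifit15 at 1.55, 2.26 and 2.01 at 0.1, 1 and 4 mg/L, and neither passed the adjusted test at 0.1 or 1 mg/L.

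Between replicate numbers, edgeR passed 0 of the 5 genes (group and number in the model), beside 15.1% of all genes, and 2 of them, isg15 and mxa, had an unadjusted p under 0.05, as had 33.2% of all genes. DESeq2 and limma-voom also passed 0, beside 18.2% and 15.0% of all genes. isg15 averaged 1.86 ± 0.593 CPM in the libraries numbered 3, 1.72 ± 0.652 CPM in those numbered 2 and 0.951 ± 0.338 CPM in those numbered 1 (SD, n = 4 each). Its edgeR adjusted p was 0.13. mxa averaged 0.282 ± 0.104, 0.158 ± 0.0759 and 0.352 ± 0.082 CPM for numbers 3, 2 and 1 (edgeR adjusted p = 0.099), and its library numbered 2 was the lowest of each group. For ifit14 the adjusted p was 0.98, with means of 0.738, 0.728 and 0.721 CPM for numbers 3, 2 and 1, and for ifit15 and rsad2 it was 0.70. The labels do not say what a replicate number marks.

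**Figure D4:**
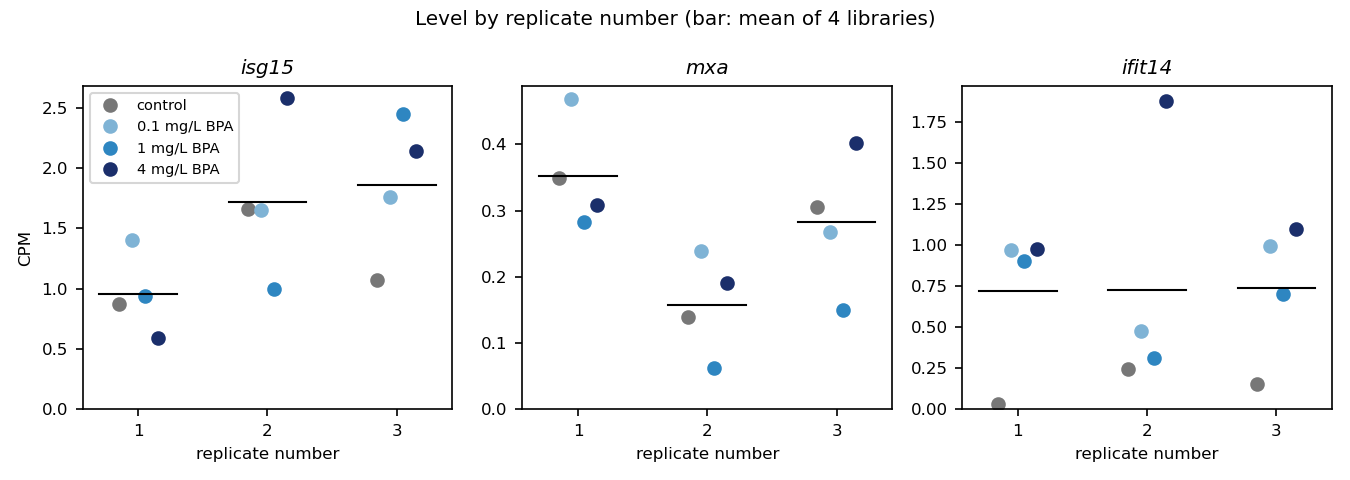
CPM (y axis, own scale in each panel) of isg15, mxa and ifit14 by replicate number (x axis), with a point per library, a colour per dose and a bar for the mean of 4 libraries. isg15 averages 0.951 CPM in the libraries numbered 1 and 1.86 CPM in those numbered 3, and ifit14 has means between 0.721 and 0.738 CPM.

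Across the 5 tested genes, 1 passed the edgeR threshold at 4 mg/L, ifit14, beside 0.281% of all tested genes, and the choice of ifit14 fixed this count. It was also 1 with the replicate number as a block, beside 4.88% of all genes, and 0 with DESeq2 (2.16%) and limma-voom (0.232%). At 4 mg/L DESeq2 gave an adjusted p for only 1 of the 5 genes and none for ifit14, so it could not pass ifit14. With each library left out in turn the edgeR call of ifit14 held in 2 of 12 fits, those without replicate 2 or replicate 3 at 1 mg/L. Those 2 fits passed 77 and 106 of all genes, and the other fits passed 14 to 80. At 1 mg/L edgeR passed 0 of the 5, with 0.067% of all genes past the threshold (1.33% with the block), and at 0.1 mg/L 0 of the 5, with 0.0% of all genes (0.00893% with the block). At both doses 2 of the 5, ifit14 and ifit15, had an unadjusted p under 0.05, as had 8.77% of all genes at 1 mg/L and 5.01% at 0.1 mg/L. Both genes passed the filter through exposed libraries alone, so this count is a description. limma-voom passed 0 of the 5, beside 0.0134% of all genes at 1 mg/L and 0.0% at 0.1 mg/L. DESeq2 also passed 0, beside 1.22% and 0.0982%, though at 1 mg/L it gave an adjusted p for only 1 of the 5, isg15.

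The 3 libraries of a dose lay wholly above the controls for ifit14 and ifit15 at 4 mg/L (8.24% of all genes), for the same 2 genes at 1 mg/L (8.05%) and for ifit14 and rsad2 at 0.1 mg/L (5.09%). Among the 5 genes, the median log2 fold change was 0.58, 0.22 and 0.54 at 0.1, 1 and 4 mg/L, and over all tested genes it lay between −0.01 and 0. ifit14, ifit15 and rsad2 passed the filter through exposed libraries alone, and ifit14 was chosen at 4 mg/L. The lack of overlap and the medians are therefore descriptions and not evidence of a direction.

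The comparison of 1 with 0.1 mg/L used no library of the contrast that chose ifit14, although the fit estimates the spread over all groups. edgeR passed 0 of the 5 genes, with 0.00893% of all genes past the threshold (0.00893% with the replicate block, which also passed 0 of the 5). DESeq2 and limma-voom passed 0 of the 5 each, beside 0.00893% and 0.0% of all genes, and 0 of the 5 had an unadjusted p under 0.05, against 1.95% of all genes. Without the block the log2 fold change of ifit14 was −0.34 (SE 0.49, interval −1.41 to 0.73). That interval includes 0, so no difference was detectable. ifit15 had a log2 fold change of 0.71 (SE 0.45, interval −0.28 to 1.69), and its 3 libraries at 1 mg/L lay above those at 0.1 mg/L, as for 3.06% of all genes.

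Upstream of these genes, the interferon ligands had few counts. The 6 ligand genes in the files (ifnphi1 to ifnphi4 and the interferon gamma genes ifng1-1 and ifng1-2) had 66 counts over all libraries, 22 of them at 4 mg/L and 14 in controls, and 0 of them passed the filter. ifnphi1, a type I interferon gene of larvae, averaged 0.164 CPM at 4 mg/L and 0.065 CPM in controls, from 16 and 5 counts. The ratio of these counts after scaling was 2.73, with a counting interval of 0.955 to 9.53 that includes 1. Its libraries at 4 mg/L had 0.196, 0.127 and 0.167 CPM, above the controls (0.0583, 0.0347 and 0.102 CPM), as for 8.24% of the tested genes. At 0.1 and 1 mg/L ifnphi1 had 6 and 9 counts. ifnphi3 went the other way, with 2 counts at 4 mg/L and 6 in controls. ifnphi2 had 0 counts in all 12 libraries.

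The remaining pathway was described with 8 lists, which hold the ligands and 115 tested genes. edgeR, DESeq2 and limma-voom each passed 0 of the 115 at 0.1, 1 and 4 mg/L against control. By edgeR 0.0%, 0.067% and 0.281% of all genes passed at these doses. DESeq2 gave an adjusted p for only 101 of the 115 at 1 and 4 mg/L. An unadjusted edgeR p under 0.05 was found for 2, 5 and 12 of them, beside 5.01%, 8.77% and 12.4% of all genes. At 4 mg/L 39 of the 115 lay above 0, and their median was −0.07 on the log2 scale. The 11 receptors and JAK kinases had a median of −0.14 at 4 mg/L. Of these, jak1, the kinase that interferon receptors share, averaged 113 CPM at 4 mg/L and 107 CPM in controls, and il10rb, a receptor subunit, averaged 22 CPM and 33.5 CPM (adjusted p = 0.28). The 15 tested sensors and adaptors had a median of −0.15, with tbk1, the kinase that activates IRF3, at −0.15 (adjusted p = 0.61) and mavs, the mitochondrial adaptor of RNA sensors, at −0.04 (adjusted p = 0.91). The 18 IRF and STAT factors had a median of −0.09, with irf1b at −0.13 and stat6 at −0.09. The 8 feedback inhibitors had a median of 0.02, with socs3b, a suppressor of cytokine signalling, at −0.04.

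For the 39 other effectors that interferon induces, the median log2 fold changes were 0.11, −0.15 and −0.04 at 0.1, 1 and 4 mg/L. ifi30, a lysosomal thiol reductase gene, averaged 48.9 CPM at 4 mg/L and 50.6 CPM in controls, and the finTRIM gene ftr83 42.8 CPM and 43.8 CPM. mxf, another Mx copy, was 3.07 ± 3.09 CPM at 4 mg/L and 3.14 ± 2.17 CPM in controls (SD, n = 3 each), and the groups overlapped. mxf passed the test between replicate numbers (adjusted p = 0.018), with log2 differences of −1.91 for number 2 and −1.33 for number 3 over number 1. This test takes both differences together, so its p-values do not belong to number 3 over number 1 alone. For the genes that follow, only the log2 difference of number 3 over number 1 is given, though for gbp1 that of number 2 was −0.8. Also past that test were ccl19a.1, a chemokine gene (1.17, adjusted p = 0.0028), xaf1, an apoptosis gene (0.87, adjusted p = 0.0092), and gbp1, a guanylate-binding protein gene (−0.42, adjusted p = 0.019). In all, 15 of the 115 genes passed it, beside 15.1% of all genes. Among the others were the receptor genes crfb1 (0.54, adjusted p = 0.019) and il10rb (0.51, adjusted p = 0.039), and tmem173, the STING adaptor gene (0.64, adjusted p = 0.022). The 11 tested genes of MHC class I and the immunoproteasome had a median of −0.20 at 4 mg/L, with b2ml, a beta 2 microglobulin copy, at 168 CPM against 208 CPM in controls (adjusted p = 0.36). The 13 tested inflammatory genes had a median of −0.04 at 4 mg/L and ran from −1.18 to 1.22, with 5 above 0. An unadjusted edgeR p under 0.05 was found for 5 of the 13, beside 12.4% of all genes. The 2 of highest mean CPM were the complement genes c3a.1 at 1.22 (adjusted p = 0.35) and cfb at 0.91 (adjusted p = 0.32).

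**Figure D5:**
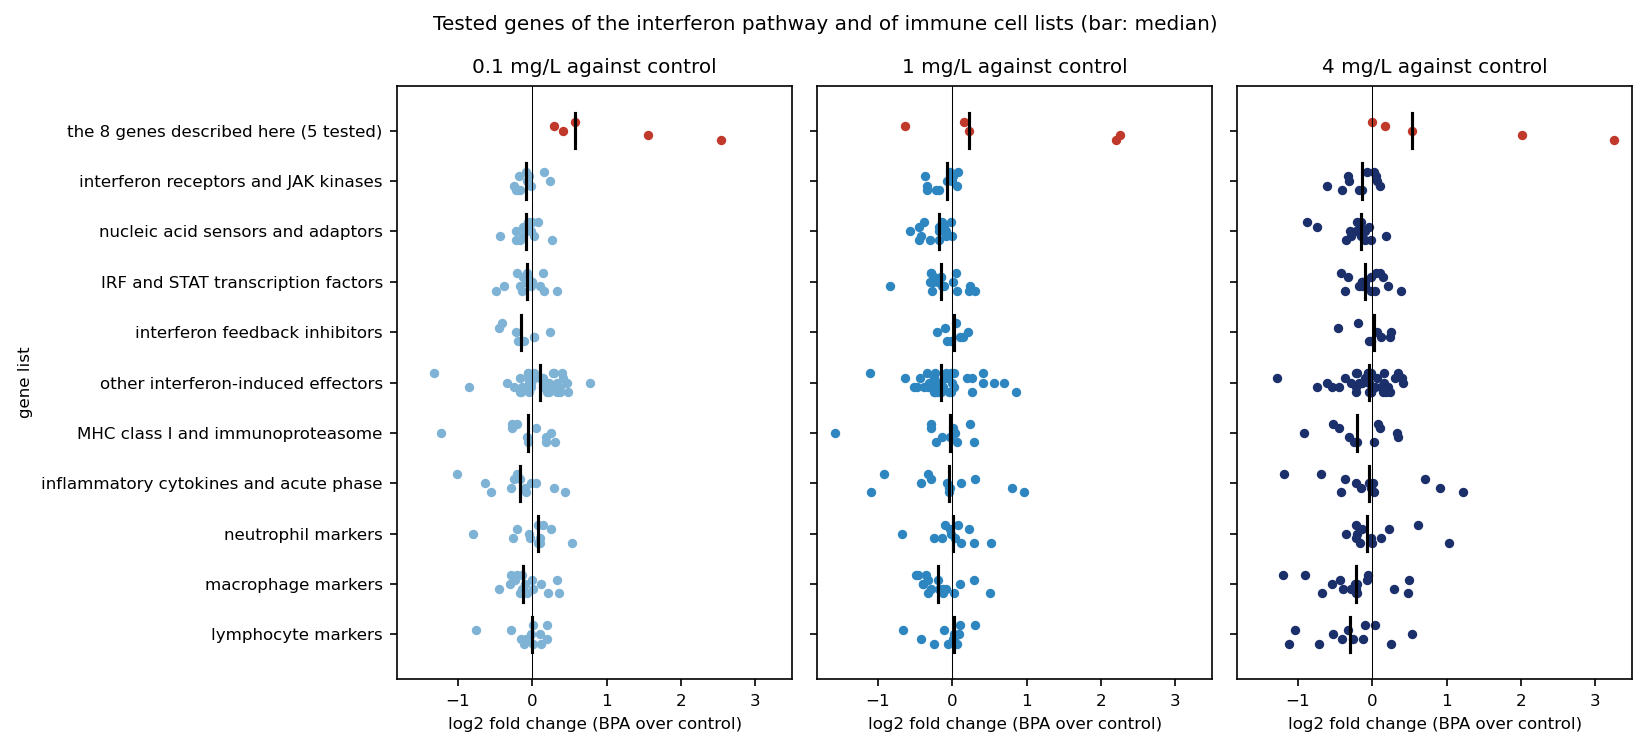
edgeR log2 fold change of BPA over control (x axis) at 0.1, 1 and 4 mg/L for the tested genes of each list (rows), with a point per gene and a bar at the list's median. ifit14 and ifit15 stand at 2.54 and 1.55 at 0.1 mg/L and at 3.25 and 2.01 at 4 mg/L. Single genes of the other 10 lists run from −1.57 to 1.22 over these doses. The medians of the 5 tested genes are 0.58, 0.22 and 0.54 at 0.1, 1 and 4 mg/L, and those of the other 10 lists lie between −0.30 and 0.11. ifit14, ifit15 and rsad2 passed the filter through exposed libraries alone, and ifit14 was chosen at 4 mg/L. The medians of the 5 genes are therefore descriptions and not evidence of a direction.

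Markers of immune cells were measured in the same whole larvae, where fewer cells of a type and less RNA per cell cannot be told apart. The summed CPM of 17 macrophage markers ran from 380 to 545 at 4 mg/L and from 373 to 470 in controls. Most of this sum came from lgmn, a lysosomal protease gene, with 354 ± 84.2 CPM at 4 mg/L and 253 ± 26.8 CPM in controls (SD, n = 3 each; log2 fold change 0.48, edgeR adjusted p = 0.29). The list as a whole had a median log2 fold change of −0.22 at 4 mg/L, with 3 of 17 markers above 0. Of its 7 markers with an unadjusted p under 0.05, 2 were higher and 5 lower than controls, among them grn2, a granulin gene, at −1.2 (adjusted p = 0.24). mpeg1.2, a perforin-like macrophage gene and the other one of highest mean CPM, was at −0.06 (adjusted p = 0.95). For 12 genes listed as neutrophil markers the sum ran from 386 to 1040 at 4 mg/L and from 275 to 517 in controls. Most of it came from cpa5, a carboxypeptidase gene with 490 ± 342 CPM and 239 ± 115 CPM (SD, n = 3 each). The sum therefore follows cpa5, which had 344, 881 and 246 CPM at 4 mg/L, and is not read as a level of neutrophils. The neutrophil list had a median log2 fold change of −0.07 at 4 mg/L, with 5 of 12 above 0. mpx, the neutrophil myeloperoxidase gene, averaged 13.3 ± 2.27 CPM at 4 mg/L and 14.5 ± 2.15 CPM in controls. The 15 lymphocyte markers summed to between 53.3 and 76 CPM at 4 mg/L and between 55.4 and 77.4 CPM in controls, and tox, a thymocyte transcription factor gene, gave most of it, with 41.1 ± 9.01 CPM and 34.5 ± 10.1 CPM (SD, n = 3 each). The 12 of them that were tested had a median log2 fold change of −0.30 at 4 mg/L, with 3 above 0 and 3 at an unadjusted p under 0.05, all 3 lower. In each of the 3 lists 0 markers were at 0 in all libraries, and edgeR passed 0 of the 41 tested at any dose. An unadjusted p under 0.05 was found for 11 at 4 mg/L, beside 12.4% of all genes, for 1 at 1 mg/L, beside 8.77%, and for 0 at 0.1 mg/L, beside 5.01%. DESeq2 and limma-voom also passed 0 of them, though DESeq2 gave an adjusted p for only 35 of the 41 at 1 and 4 mg/L. Between replicate numbers edgeR passed 6 of the 41, a share near the 15.1% of all genes. Among them was csf1rb, a macrophage growth factor receptor gene (adjusted p = 0.0086 for both number differences together). Its log2 difference of number 3 over number 1 was 0.76. The part of these markers in the level of ifit14 was not tested.

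The genes whose levels ordered the 12 libraries most like ifit14 lay outside the lists above. By Spearman's correlation of log2 CPM over 12 libraries, the nearest of 22398 genes were ppt1, a lysosomal thioesterase gene (rho 0.97), itln2, an intelectin gene whose product binds microbial sugars (0.95), tmem123 (0.93), PVRL3, a nectin gene of cell contacts (0.91), and prkacba, a catalytic subunit of protein kinase A (0.90). These are the extremes of a search over all genes, the libraries share their dose groups, and the values are descriptions. itln2 averaged 1.48 ± 0.171 CPM at 4 mg/L, and 0.44 ± 0.204 CPM in controls (SD, n = 3 each; log2 fold change 1.80, edgeR adjusted p = 0.12). ppt1 averaged 40.4 ± 2.97 CPM at 4 mg/L and 31.2 ± 0.345 CPM in controls (log2 fold change 0.37, adjusted p = 0.18). By the same measure ifit15 ranked 608 (rho 0.60) and isg15 1549 (rho 0.48), while mxa and rsad2 had rho of 0.19 and 0.15.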

How the data were processed

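For each library the authors deposited a table of unnormalized counts per gene, in which all values are whole numbers. The submitters' processing notes list RSEM 1.2.28, STAR 2.5.1b, DESeq2 1.10.1, CASAVA and the build GRCz10, without their roles. Whether RSEM estimates were rounded, and whether counting used the strand of the reads, is not given in the sources used here, so reads of overlapping or antisense genes may be included. Genes passing edgeR's filterByExpr (minimum count 10, minimum total 15) were scaled by TMM and fitted in edgeR 4.0.16 (R 4.3.3, prior count 0.125) over all 12 libraries, with Benjamini-Hochberg adjustment at 0.05. The standard error is the log2 fold change divided by the square root of F. CPM were computed from the counts with TMM scaling, and log2 CPM used a prior count of 2. Replicate numbers were tested with group and number in the model, taking the differences of numbers 2 and 3 from number 1 together. Alternatives were DESeq2 1.42.0, limma-voom (limma 3.58.1), RLE and upper-quartile scaling, no filter, at least 1 CPM in 3 libraries, an adjusted p under 0.01, the replicate block, only the 2 groups compared and each library left out. Scripts were checked on simulated counts. The genes and all lists were chosen with earlier results of these data known. Of the 10 genes listed, 2 are not reported here. Named genes were the other 8, up to 4 per list past a test, the 2 of highest mean CPM per list and the 5 nearest ifit14. Not all genes of that rule are named, and mpx, fas, cmpk2, mxb, ifit11, ifit12 and ifit16 are named outside it, after their values were seen. Between 1 and 0.1 mg/L, deviations from the group means correlated in same-numbered libraries (0.513, 0.233 and 0.341). The count of genes passed with the replicate block is therefore given there as well. The fold changes, standard errors, intervals and p-values printed for that comparison come from the fit without replicate number, which ignores this pairing. The 8 identifiers matched the reference gene names by ID, 7 of them with the same symbol. In RefSeq the 8 genes were found by symbol. RefSeq's assembly GRCz12tu is another build, so it was used only for gene order, and no coordinates or sequences are given.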

Additional observations from a re-analysis of the deposited data

How the results depend on the processing

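At 4 mg/L against control, 1 of the 5 tested genes passed the threshold, ifit14, beside 0.281% of all tested genes. The choice of ifit14 fixed this count. The count was 0 with DESeq2, limma-voom, upper-quartile scaling, only the 2 groups compared or an adjusted p under 0.01. These passed 483, 52, 50, 47 and 16 of all genes, against 63 in the main fit. The count of the 5 was also 0 with only replicate numbers 1 and 2, an alternative chosen after seeing the data, which passed 21 of all genes. DESeq2 gave ifit14 no adjusted p. Leaving out each library in turn gave 0 to 1, with the call kept in 2 of 12 fits, those without replicates 2 and 3 at 1 mg/L. Those 2 fits passed 77 and 106 of all genes, and the other fits passed 14 to 80. The log2 fold change of ifit14 stayed positive in all 21 alternatives (2.67 to 4.04), as did that of ifit15 in the 19 that kept it (1.74 to 2.71). ifit14 was chosen by this contrast, ifit15 passed the filter through exposed libraries alone, and the alternatives reuse the same libraries. These signs are therefore descriptions and not evidence of a direction. With the replicate block the count was 1, beside 4.88% of all genes. For 1 and 0.1 mg/L against control and 1 against 0.1 mg/L it stayed at 0, so the block changed no call of the 5 genes. Same-numbered libraries of control and 4, 1 or 0.1 mg/L did not all correlate in their deviations (−0.238 to 0.455). Under every alternative run, 0 of the genes described here passed at 1 and 0.1 mg/L against control, between these doses and between replicate numbers. The shares of all genes that passed in the main fit, DESeq2 and limma-voom are given above. Of the log2 fold changes recomputed for the 5 genes, 8 of 100 changed sign at 4 mg/L, 2 of 99 at 1 mg/L, 2 of 100 at 0.1 mg/L and 3 of 101 between 1 and 0.1 mg/L. Depth limits ifit8, ifit9 and ifit10, which fell below the filter on low counts and entered only the fit with no filter, where none of them passed.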
